A study of Mus musculus with 9 samples.

Results

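The transcripts of the mitochondrial genome are described here in CD4 T cells that carry the costimulatory receptor ICOS, taken from tumours of mice treated with checkpoint antibodies. They were chosen by name, as every gene of the count table whose symbol starts with mt-, which gave 37 of 45808 genes: 13 protein genes, 2 ribosomal RNAs and 22 transfer RNAs. All 37 matched an annotated gene of chromosome M in GENCODE M21 (build GRCm38), the whole gene set of the mouse mitochondrial genome. The cells were sorted on day 12 after injection of MC38, a mouse colon adenocarcinoma line, into C57BL/6J mice. The 9 libraries came from 1 mouse each, 3 labelled Control, 3 treated with anti-CTLA-4 and 3 with anti-PD-1, all of them bearing the same tumour line. The Control treatment, the antibody clones and doses, the age of the mice and the number of cells sorted were not stated in any source used here. RNA was amplified with a kit made for single cells, because each mouse yielded little, so a library holds the sorted cells of 1 mouse in bulk. A lower share of one cell type and less RNA per cell of that type cannot be told apart in such libraries.

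The mitochondrial genome is a small circle of DNA, present in many copies per cell, that is transcribed from both strands into long precursors. The transfer RNAs lie between most of the other genes and are cut out, which releases the ribosomal RNAs and messengers. The messengers code for subunits of respiratory chain complexes I, III and IV and of the ATP synthase, and the ribosomal RNAs build the mitochondrial ribosome that translates them. Every other protein of mitochondria is coded in the nucleus and imported. T cells build more mitochondria and raise respiration after activation, and the share of RNA from mitochondria is also widely used as a sign of cell and RNA quality.

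Parts of the mouse mitochondrial genome also lie in the nucleus, and one such stretch bears on which of these genes can be counted. A run of 7 annotated pseudogenes spans 4663 bases at chr1:24611535-24616197 (GRCm38). In GENCODE M21 transcripts, mt-Co2 and its copy Gm28661 were identical at 681 of 681 aligned bases, mt-Atp6 and Gm10925 at 678 of 678, mt-Co3 and Gm28437 at 783 of 783, and mt-Nd4l and Gm10222 at 294 of 294. A read that lies inside such a stretch fits both places equally well. The sequences that follow, all 5′ to 3′ from GENCODE M21, show the borders and the few differences of these copies, with substitutions counted from 1 at the first base of the mt- gene and the mt- base written first. mt-Nd3 differed from Gm28438 by T3C alone, at 344 of 345 bases identical, as the first 60 bases show in capitals (chrM:9459-9518, plus strand, and chr1:24613060-24613119, minus strand).
mt-Nd3: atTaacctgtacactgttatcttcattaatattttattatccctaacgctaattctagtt
Gm28438: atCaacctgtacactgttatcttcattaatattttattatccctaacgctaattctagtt
The copy Gm29216 covers the last 492 bases of mt-Co1 and differed in 6 of them, all near its start: T1056A, C1057T, A1059G, A1060G, C1062A and A1066T (capitals, chrM:6381-6440, plus strand, and chr1:24616138-24616197, minus strand).
mt-Co1: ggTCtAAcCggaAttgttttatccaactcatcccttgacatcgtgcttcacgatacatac
Gm29216: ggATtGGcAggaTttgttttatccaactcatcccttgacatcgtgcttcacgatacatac
At the other end the run of copies stops inside mt-Nd4. Gm28439 matched 876 of 876 bases, 63.6% of that gene, and the next line shows the last 30 copied bases in capitals and the first bases beyond the copy (chrM:11013-11072, plus strand).
mt-Nd4: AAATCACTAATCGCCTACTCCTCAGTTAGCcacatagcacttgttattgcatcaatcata

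Neighbouring genes of the mitochondrial genome also share bases, and the transfer RNAs are shorter than a read. The 22 transfer RNAs are 59 to 75 bases long, and the reads were 76 bases. The shortest (mt-Ts2, chrM:11613-11671), the longest (mt-Tl1, chrM:2676-2750) and the 1 that was counted at all (mt-Ti, chrM:3706-3774) are shown whole, all on the plus strand, with the bases that a neighbouring gene also covers in capitals.
mt-Ts2: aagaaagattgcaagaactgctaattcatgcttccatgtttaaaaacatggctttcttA
mt-Tl1: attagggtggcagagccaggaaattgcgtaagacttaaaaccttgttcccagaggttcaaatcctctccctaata
mt-Ti: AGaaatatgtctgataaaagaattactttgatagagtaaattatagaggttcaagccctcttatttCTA
The last 43 bases of mt-Atp8 are also the first of mt-Atp6, in another reading frame (capitals, chrM:7910-7969, plus strand).
mt-Atp8: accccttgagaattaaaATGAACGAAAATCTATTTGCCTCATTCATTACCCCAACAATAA
The only protein gene on the minus strand, mt-Nd6, ends inside the end of mt-Nd5 on the plus strand, with 14 bases in common (capitals, chrM:13526-13565 for mt-Nd5 and chrM:13552-13591 for mt-Nd6).
mt-Nd5: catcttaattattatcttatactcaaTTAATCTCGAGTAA
mt-Nd6: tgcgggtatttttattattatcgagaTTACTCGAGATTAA
The authors' table is named for the first strand, but how reads were assigned is not stated otherwise, so reads from those 14 bases could be assigned to either gene or set aside.

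The libraries held 25530333 to 41508589 gene counts. CPM below is the count scaled to 1e+06 gene counts of the library, and 3 counts, the floor used for a gene at 0, equalled 0.0723 to 0.118 CPM. Of the 9 libraries 2 stood apart: 5 CPM was reached by 2662 genes in anti-CTLA-4 replicate 2 and by 4209 in anti-PD-1 replicate 2, against 5124 to 6309 in the other 7. In anti-CTLA-4 replicate 2 the defining markers of the sorted cells were low, with Cd3e at 0.590 CPM against 347 to 838 elsewhere, Cd4 at 24.5 CPM against 308 to 808, and Icos at 507 CPM against 1706 to 2876. The 15 macrophage and monocyte markers summed to 4990 CPM there, against 244 to 1033 CPM elsewhere, with 8 of them at 5 CPM or more against 4 to 11. The 9 fibroblast markers summed to 4132 CPM against 254 to 1296, with 6 at 5 CPM or more against 3 to 6. The 12 T cell markers summed to 3695 CPM in it and to 7477 to 10161 elsewhere. In anti-PD-1 replicate 2 these 3 sums lay within the range of the other libraries. The 15 dissociation stress genes came to 7732 CPM for anti-CTLA-4 replicate 2, where the other libraries had 3023 to 4801. Markers of neutrophils, dendritic cells, CD8 T cells, NK cells, B cells, tumour epithelium and red cells summed to at most 267, 250, 125, 84.4, 63.8, 57.7 and 2.48 CPM. No 2 replicates of a group held the same values.

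Mitochondrial transcripts took between 9.93% and 17.4% of the gene counts of a library, and the 3 groups overlapped. The share was 14.1%, 10.7% and 11.8% in the Control libraries. It was 14.2%, 16.3% and 13.1% with anti-CTLA-4, and 9.93%, 17.4% and 11.4% with anti-PD-1. The means were 12.2 ± 1.75% in Control, 14.5 ± 1.65% with anti-CTLA-4 and 12.9 ± 3.94% with anti-PD-1 (SD, n = 3 each). The difference of means was 2.31 percentage points for anti-CTLA-4 minus Control and 0.702 points for anti-PD-1 minus Control, and Control replicate 1 lay above anti-CTLA-4 replicate 3. As a sum over the set, the share was given no p-value. Wilson 95% intervals reached at most 0.0129 points to either side, so counting error was far smaller than the spread between mice, which these intervals do not cover.
The highest shares, 17.4% and 16.3%, came from the 2 libraries with the fewest genes, anti-PD-1 replicate 2 and anti-CTLA-4 replicate 2. Malat1, a nuclear RNA, was lowest in the same libraries, at 5150 and 3460 CPM against 7525 to 13113 in the others. The list of 6 RNAs retained in the nucleus, Malat1 among them, summed to 13056 and 8350 CPM there, against 16040 to 28338 CPM. Without them the difference was 1.41 points for anti-CTLA-4 minus Control and -1.53 points for anti-PD-1 minus Control. The second difference ran from -1.53 to 2.20 points when 1 library was left out, and was below 0 without anti-PD-1 replicate 2 and, at -0.058 points, without Control replicate 2. Anti-CTLA-4 minus anti-PD-1 came to 1.61 points, and to 0.113 points without anti-PD-1 replicate 1, 0.705 without anti-CTLA-4 replicate 2, 0.865 without anti-PD-1 replicate 3 and 3.84 without anti-PD-1 replicate 2. The part of gene number, other cells and RNA quality in the share was not tested.

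**Figure D1:**
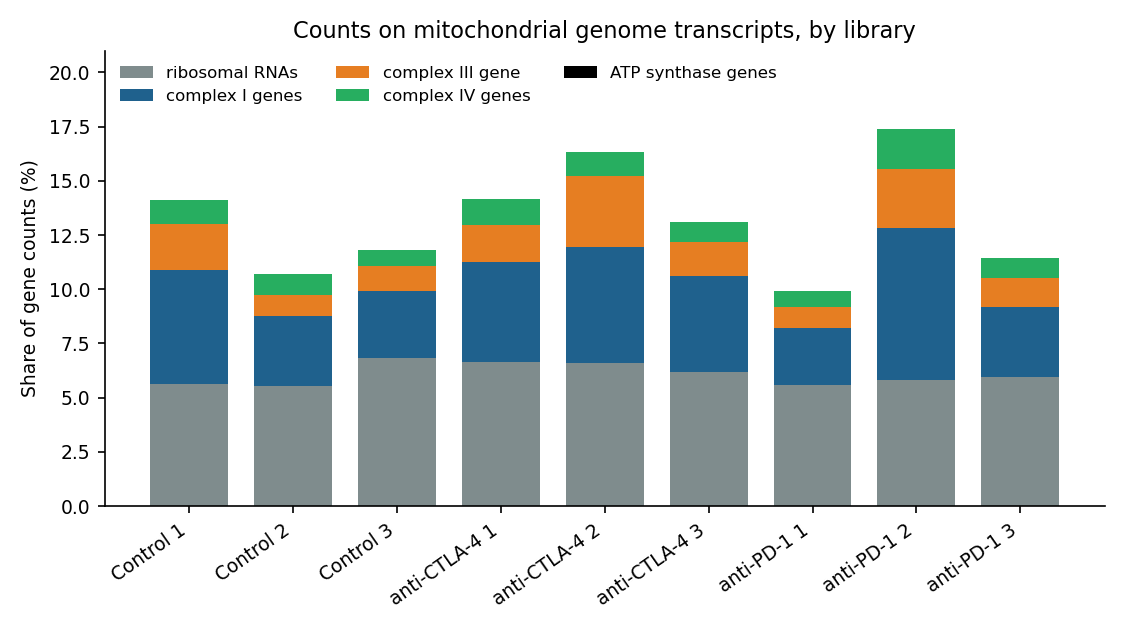
Stacked bars give the share of gene counts (%, from 0) on the ribosomal RNAs and on the genes of complexes I, III and IV, for each library of the Control, anti-CTLA-4 and anti-PD-1 groups. The grey ribosomal RNA part stayed between 5.56% and 6.82%, the coloured protein gene part ranged from 4.34% to 11.6%, and the ATP synthase part, at most 0.0135%, is too thin to be seen.

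Within the set, the ribosomal RNAs varied little and the protein genes varied a lot. Ribosomal RNAs took 5.62%, 5.56% and 6.82% of gene counts in Control, 6.64%, 6.61% and 6.18% with anti-CTLA-4, and 5.59%, 5.80% and 5.94% with anti-PD-1. The highest library was 1.23 times the lowest. Protein genes took 8.51%, 5.14% and 5.0% in Control, 7.52%, 9.72% and 6.91% with anti-CTLA-4, and 4.34%, 11.6% and 5.50% with anti-PD-1. Here the highest library was 2.67 times the lowest, and it was again anti-PD-1 replicate 2. The ribosomal RNAs thus made up 33.3% of mitochondrial counts in that library and 57.7% in Control replicate 3, the lowest and highest values. By group their part was 49.8 ± 9.14% in Control, 44.9 ± 3.80% with anti-CTLA-4 and 47.2 ± 12.2% with anti-PD-1 (SD, n = 3 each), with overlap between all groups.

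The 2 ribosomal RNAs of the mitochondrial ribosome were the steadiest of the members counted in every library. mt-Rnr1 (chrM:70-1024), the RNA of the small subunit, stood at 42132, 39625 and 48316 CPM in the Control mice, 47958, 46773 and 44412 CPM under anti-CTLA-4 and 40100, 41673 and 42825 CPM under anti-PD-1. The highest library was 1.22 times the lowest. All 3 anti-CTLA-4 libraries lay above all 3 anti-PD-1 libraries, and Control spanned both.
mt-Rnr2 (chrM:1094-2675), the RNA of the large subunit, stood at 14080, 15935 and 19874 CPM in the Control mice, 18453, 19306 and 17382 CPM under anti-CTLA-4 and 15820, 16279 and 16587 CPM under anti-PD-1. Again anti-CTLA-4 lay above anti-PD-1 in every library, and Control replicate 3 was the highest of all 9. Both genes are made from the same precursor, and the ratio of their counts was 2.99 in Control replicate 1 and 2.42 to 2.60 in the other 8 libraries.

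Complex I, the NADH dehydrogenase that feeds electrons into the chain, has 7 subunits in the set, and 5 of them had at least 1000 counts in every library. Together the 7 took 2.60% to 7.02% of gene counts. mt-Nd5 (chrM:11742-13565) stood at 26077, 17544 and 14813 CPM in the Control mice, 25393, 28976 and 23450 CPM under anti-CTLA-4 and 11734, 36852 and 15302 CPM under anti-PD-1. The anti-CTLA-4 libraries were within a narrow range, while anti-PD-1 held both the lowest and the highest library. mt-Nd2 (chrM:3914-4951) stood at 14476, 6662 and 7700 CPM in the Control mice, 9996, 12853 and 9708 CPM under anti-CTLA-4 and 7003, 18412 and 8808 CPM under anti-PD-1. Control replicate 1, anti-CTLA-4 replicate 2 and anti-PD-1 replicate 2 were the highest of their groups for both genes.
mt-Nd1 (chrM:2751-3707) varied less, from 4788 to 8104 CPM, with group means of 5892 ± 1223 in Control, 6349 ± 262 with anti-CTLA-4 and 5938 ± 1877 with anti-PD-1 (CPM, SD, n = 3 each). mt-Nd4 (chrM:10167-11544) stood at 4533, 2457 and 2420 CPM in the Control mice, 4323, 5199 and 3949 CPM under anti-CTLA-4 and 2041, 6151 and 2699 CPM under anti-PD-1. Control replicate 1 and anti-PD-1 replicate 2 reached the level of the anti-CTLA-4 libraries, and the other 4 lay below all 3 of these.
mt-Nd6 (chrM:13552-14070), the subunit read from the other strand, did not follow mt-Nd5 and mt-Nd2. It stood at 397, 378 and 449 CPM in the Control mice, 456, 62.1 and 812 CPM under anti-CTLA-4 and 315, 696 and 678 CPM under anti-PD-1. In anti-CTLA-4 replicate 2 it was the lowest of all libraries, while mt-Nd5, mt-Nd2 and mt-Cytb were the highest of their group there. It made up 0.0639% of mitochondrial protein gene counts in that library and 0.466% to 1.23% in the other 8. This was not particular to its strand, since mt-Atp8, on the plus strand, was also lowest in that library, at 7.51 CPM.
The small subunits mt-Nd3 and mt-Nd4l, both copied nearly whole in the nucleus, were close to absent from the counts. mt-Nd3 had 1667 counts in Control replicate 1, 1 in anti-PD-1 replicate 2 and 0 in the other 7 libraries. mt-Nd4l had 0 to 14 counts.

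Complex III has 1 mitochondrial subunit, mt-Cytb (chrM:14145-15288), the cytochrome that passes electrons on through the complex. It stood at 21213, 9945 and 11724 CPM in the Control mice, 16825, 32530 and 15359 CPM under anti-CTLA-4 and 9987, 27114 and 13319 CPM under anti-PD-1. The same 3 libraries as for mt-Nd2 were the highest of their groups. In anti-CTLA-4 replicate 2 mt-Cytb made up 33.5% of the protein gene counts, against 19.4% to 24.9% in the other 8 libraries.

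Complex IV, cytochrome c oxidase, has 3 subunits in the set, and only the largest had at least 1000 counts in every library. mt-Co1 (chrM:5328-6872), which holds the site where oxygen is reduced, stood at 10976, 9398 and 7463 CPM in the Control mice, 11923, 11095 and 9232 CPM under anti-CTLA-4 and 7339, 18173 and 9302 CPM under anti-PD-1. Anti-PD-1 replicate 2 was far above the rest, and the ranges of the 3 groups overlapped without it too.
mt-Co2 switched between libraries, with 2540, 3 and 0 counts in Control, 2212, 3 and 2 counts with anti-CTLA-4, and 3, 9416 and 4 counts with anti-PD-1. Replicate 1 of Control, replicate 1 of anti-CTLA-4 and replicate 2 of anti-PD-1 thus held 61.2, 72.6 and 284 CPM, and the other 6 libraries were at or near the floor. mt-Co3 had 461, 0 and 468 counts in Control, 1, 0 and 0 with anti-CTLA-4, and 0, 1 and 0 with anti-PD-1.

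The ATP synthase has 2 mitochondrial subunits, and both were low. mt-Atp8 (chrM:7766-7969), a small membrane subunit, stood at 15.9, 27.3 and 30.2 CPM in the Control mice, 135, 7.51 and 11.6 CPM under anti-CTLA-4 and 56.7, 112 and 51.3 CPM under anti-PD-1. The anti-PD-1 libraries lay above all 3 Control libraries, while anti-CTLA-4 held the highest and the 2 lowest values of all. mt-Atp6, which shapes the proton channel, had 0 to 7 counts in 8 libraries and 88 in Control replicate 3.
The transfer RNAs gave almost nothing. mt-Ti, which carries isoleucine, had 7 counts in Control replicate 1 and 0 elsewhere, and the other 21 were at 0 in all 9 libraries, where the floor allows at most 0.0723 to 0.118 CPM each. Each is shorter than a read, and the part of length in these low counts was not tested. The counts are therefore not taken as a measure of their abundance in the cells.

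**Figure D2:**
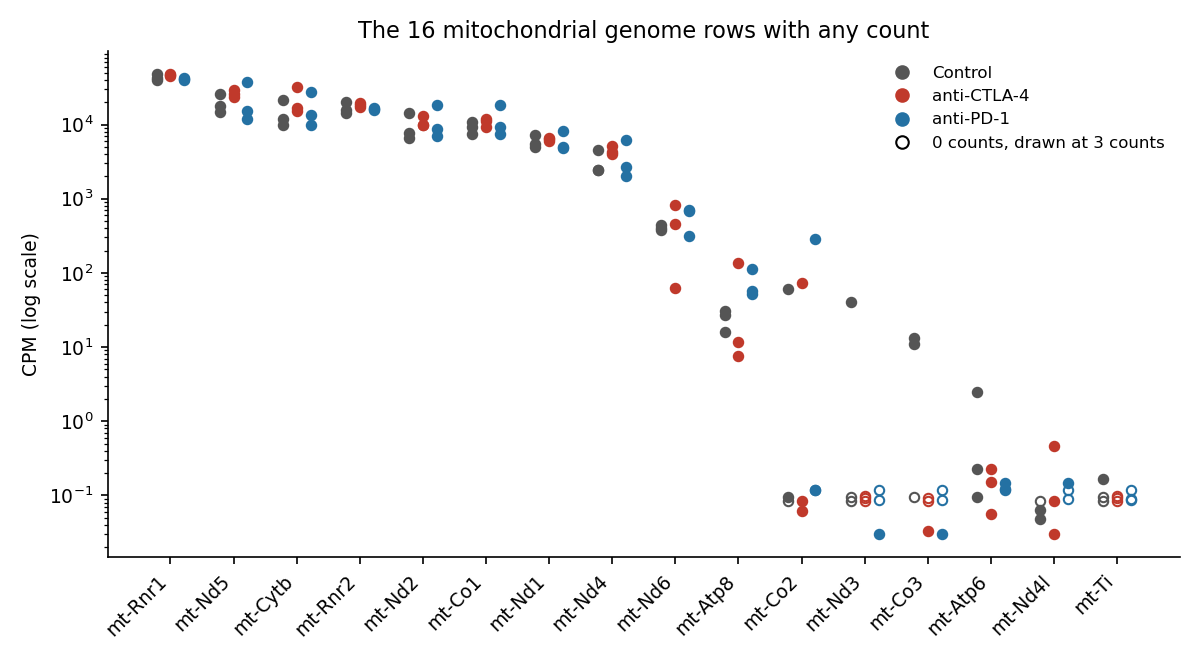
Each point is 1 library's level of an mt- gene in CPM on a log axis, coloured by group, with open points for 0 counts drawn at the floor of 3 counts. The 8 leftmost genes are at 2041 CPM or more in all 9 libraries, mt-Nd6 and mt-Atp8 spread over a factor of 13.1 and 17.99, and mt-Co2, mt-Nd3 and mt-Co3 are present in a few libraries only.

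Per kilobase of gene, mt-Rnr1 was the most abundant member in every library, at 45819 ± 3439 CPM per kb (SD, n = 9). mt-Cytb followed at 15347 ± 6921, mt-Nd5 at 12192 ± 4423, mt-Rnr2 at 10796 ± 1172 and mt-Nd2 at 10235 ± 3767 CPM per kb. The ranges of these 4 overlapped: mt-Cytb exceeded mt-Nd5 in 8 of 9 libraries, mt-Nd5 exceeded mt-Rnr2 in 5, and mt-Rnr2 exceeded mt-Nd2 in 6. mt-Co1 at 6825 ± 2109 and mt-Nd1 at 6332 ± 1200 CPM per kb came next and changed places between libraries. mt-Nd4 at 2723 ± 1036, mt-Nd6 at 908 ± 439 and mt-Atp8 at 244 ± 223 CPM per kb then followed in this order in all 9 libraries.
Of the members 9 had at least 1000 counts in every library: the ribosomal RNAs, mt-Nd1, mt-Nd2, mt-Nd4, mt-Nd5, mt-Nd6, mt-Co1 and mt-Cytb. They held at least 99.8% of the mitochondrial counts of each library. Among all 7858 tested genes 8.73% reached that count everywhere, and 77.9% had under 30 counts in some library but over 1000 in some other. Of the 11 tested mitochondrial genes only mt-Co2 did so.

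The 5 protein genes with the lowest levels were those found almost whole in annotated nuclear transcripts. Every window of 76 bases of each gene was searched in the transcripts of nuclear genes. No window was shared for mt-Rnr1, mt-Rnr2, mt-Nd1, mt-Nd6, mt-Cytb and mt-Atp8, 1.54% for mt-Nd5 and 5.61% for mt-Nd2. The share was 39.4% for mt-Co1 and 61.5% for mt-Nd4. It was 97.8% to 99.9% for mt-Nd3, mt-Nd4l, mt-Co2, mt-Atp6 and mt-Co3, none of which exceeded 9416 counts. Copies outside annotated transcripts were not searched for any gene, so these shares are lower limits. In the run on chromosome 1, the 233 bases at chr1:24614652-24614884, between Gm10925 and Gm28661, belong to no annotated transcript. These 2 copies match mt-Atp6 and mt-Co2, and mt-Atp8 lies between those genes in the mitochondrial genome. The last 43 bases of mt-Atp8 are also in mt-Atp6 and so in Gm10925, too few for a shared window. Whether the 233 bases hold the rest of mt-Atp8 was not searched, so it cannot be taken as a gene without a copy. Taken per 1000 unshared windows, the mean level was 16424 CPM for mt-Cytb, 12914 for mt-Nd5, 11835 for mt-Co1, 11688 for mt-Nd2, 7475 for mt-Nd4 and 6870 for mt-Nd1. On this scale mt-Co1 stood beside mt-Nd2, and mt-Nd4 above mt-Nd1. The scale takes shared windows to give no counts, which was not tested. mt-Co2, with 3 unshared windows, had 9416 counts in anti-PD-1 replicate 2.

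**Figure D3:**
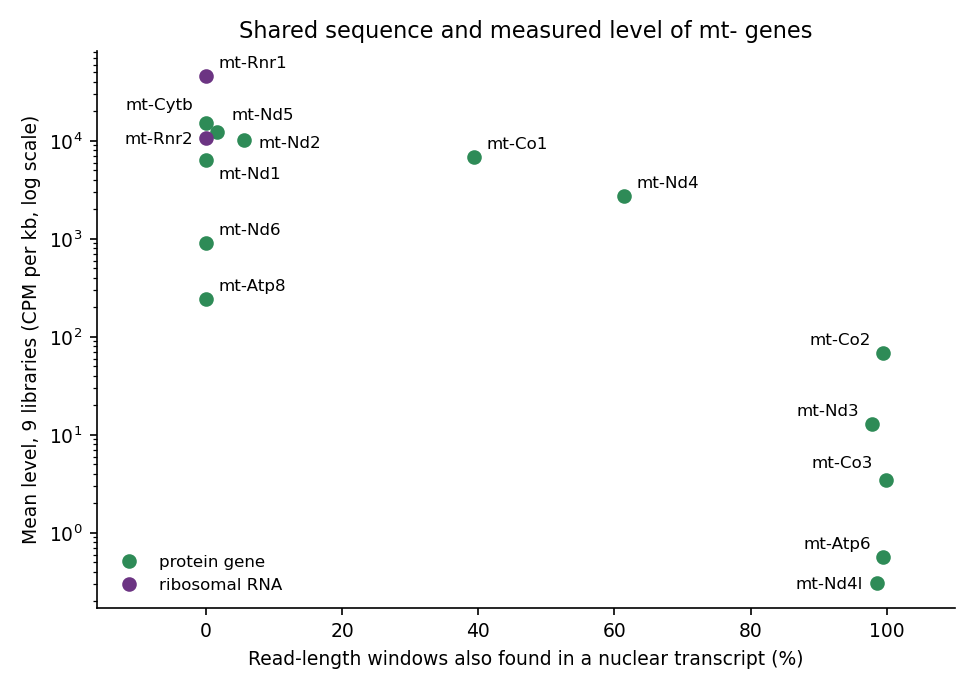
Each point is a mitochondrial protein gene or ribosomal RNA, with the share of its 76-base windows also found in a nuclear transcript (%) on the x axis and its mean level over 9 libraries in CPM per kb on a log y axis. The 5 genes at 97.8% to 99.9% lie at 0.312 to 68.0 CPM per kb, and the other 10 at 244 to 45819. For mt-Atp8, which lies between copied genes, the position at 0% is a lower limit, since unannotated copies were not searched.

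The nuclear copies were counted too, in small and uneven numbers. Gm10222, the copy of mt-Nd4l, had 18393 counts in anti-CTLA-4 replicate 2 and 18 to 2413 in the other libraries. Gm10925, the copy of mt-Atp6, had 15 to 4388 counts, and Gm28661, the copy of mt-Co2, had 2 to 2927. Gm28437, the copy of mt-Co3, was at 0 in all 9 libraries, although mt-Co3 itself had 461 and 468 counts in 2 of them. Gm28438, the copy of mt-Nd3, had 1 count in all. All 12 annotated copies found together held 232 to 676 CPM per library. Reads inside an identical stretch cannot be assigned to either place, so counts of these copies and of the mt- genes they match are uncertain.
Alignments that were not unique are summed in the table and took 24.3% to 31.1% of all its counts. They were 27.6% or more in the 5 libraries where mitochondrial protein genes took 6.91% or more of gene counts, and 25.4% or less in the other 4. Which genes those alignments came from cannot be read from the table, and their part in the differences between libraries was not tested.

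**Figure D4:**
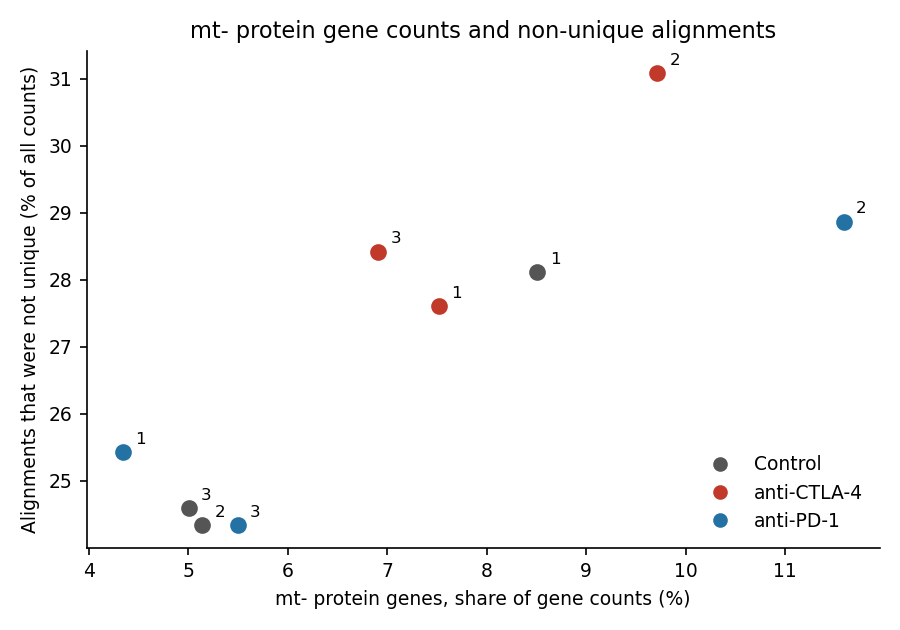
Each point is 1 of the 9 libraries, coloured by group and marked with its replicate number, with the share of gene counts on mitochondrial protein genes (%) on the x axis and the share of all counts that were alignments without a unique place (%) on the y axis. The 4 libraries at 4.34% to 5.50% on the x axis lie at 24.3% to 25.4% on the y axis, and the 5 at 6.91% to 11.6% lie at 27.6% to 31.1%.

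The comparisons between groups rest on edgeR's quasi-likelihood test over all 7858 genes with enough counts, of which 11 were mitochondrial. The other 26 members had too few counts. Fitted log2 fold changes use library sizes scaled by TMM factors, which set most genes to no change on average. For anti-CTLA-4 replicate 2 the factor was 0.407, for anti-PD-1 replicate 2 it was 0.830, and the remaining 7 libraries had 1.06 to 1.26. On this scale the mitochondrial genes of the first of these libraries stand much higher than in CPM, and each comparison is therefore given on both scales.

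Anti-CTLA-4 against Control asks whether blocking CTLA-4 changed these transcripts. Of the 11 genes 1, mt-Rnr2, was called higher with anti-CTLA-4, where 0.369% of all tested genes were called. Its log2 fold change was 0.99 ± 0.22 (SE), with an adjusted p of 0.0084 by edgeR. This SE was smaller than the 0.44 of mt-Rnr1, although the estimated coefficient of variation between libraries was larger, at 0.922 against 0.378. The SE and p of mt-Rnr2 thus do not simply reflect its own spread between mice. On the TMM scale mt-Rnr2 was at 11920, 12654 and 16195 in Control and at 16421, 47391 and 16449 with anti-CTLA-4, so the groups did not overlap. The groups of mt-Rnr1 and mt-Nd5, which were not called, did not overlap on this scale either. The share of all tested genes without overlap was taken in CPM only. In CPM the groups did overlap for mt-Rnr2, and its high value in anti-CTLA-4 replicate 2 was not seen. With library totals in place of TMM factors the log2 fold change was 0.15, and with edgeR its adjusted p was 1. Without anti-CTLA-4 replicate 2 the log2 fold change was 0.29, with an edgeR adjusted p of 0.657. The call was also lost without Control replicate 1 (edgeR adjusted p = 0.27) and without Control replicate 2 (edgeR adjusted p = 0.22). For the set, 4 of 12 tested members were called without anti-CTLA-4 replicate 3, where 72 of all 9164 tested genes were. Without anti-CTLA-4 replicate 1, 2 of 12 were called, where 79 of 9158 genes were. In both fits anti-CTLA-4 replicate 2 is 1 of only 2 libraries of its group. Without anti-PD-1 replicate 2, 2 of 12 were called, where 52 of 9236 genes were. Over 18 alternatives that gave mt-Rnr2 a p the adjusted p ranged from 3.06e-05 to 1 and was under 0.05 in 9.
The other genes did not pass the threshold. mt-Cytb had a log2 fold change of 1.64 ± 0.93 with an edgeR adjusted p of 0.576. The values were 0.91 ± 0.44 for mt-Rnr1, 1.28 ± 0.78 for mt-Nd5, 1.07 ± 0.78 for mt-Nd2 and 1.04 ± 0.45 for mt-Co1 (log2 ± SE), with edgeR adjusted p of 0.435 to 0.779. At an unadjusted p under 0.05, 4 of 11 passed, all higher, namely mt-Co1, mt-Nd1, mt-Nd4 and mt-Rnr2, against 11.3% of all tested genes. All 11 fitted changes were positive, with a median of 1.04 beside 0.01 over all tested genes. With library totals only, the median was 0.22 beside -0.34, and with RLE factors, the size factors of DESeq2, it was 3.51 beside 0.56. Without anti-CTLA-4 replicate 2 it was 0.35 beside -0.12, with 11 of 12 positive. In CPM none of the 11 had groups that did not overlap, where 11.9% of all tested genes did.

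**Figure D5:**
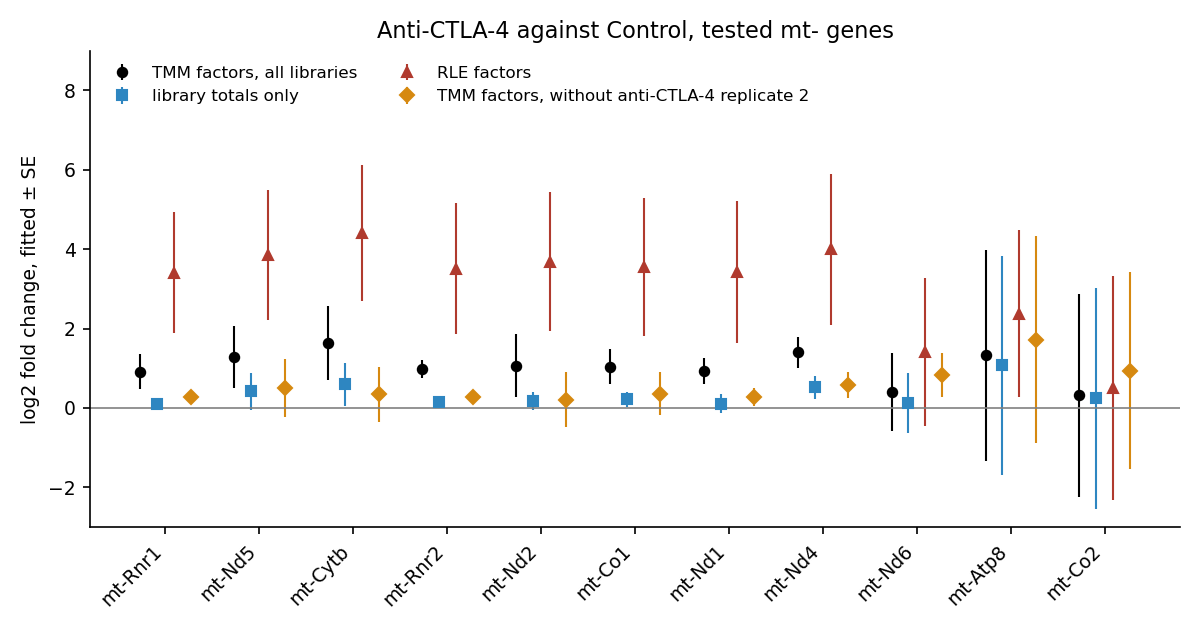
Points give the fitted log2 fold change of anti-CTLA-4 against Control for the 11 tested mt- genes, with bars of 1 SE, under 4 settings of the edgeR fit. For mt-Rnr2 the change is 0.99 with TMM factors, 0.15 with library totals only, 3.51 with RLE factors and, once anti-CTLA-4 replicate 2 is left out, 0.29.

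Anti-PD-1 against Control showed no called member. With edgeR, 0 of 11 passed at an adjusted p under 0.05, where 0.0764% of all tested genes did, and 0 of 11 at an unadjusted p under 0.05, where 6.01% did. DESeq2 gave a p to only 2 of the 11, neither of which passed. Limma voom called none, where it called 2 of all 7858 tested genes. The 6 genes with the highest CPM had log2 fold changes of 0.18 ± 0.44 for mt-Rnr1, 0.21 ± 0.22 for mt-Rnr2, 0.49 ± 0.77 for mt-Nd5, 0.57 ± 0.91 for mt-Cytb, 0.58 ± 0.78 for mt-Nd2 and 0.66 ± 0.44 for mt-Co1 (SE). All 11 fitted changes were positive, with a median of 0.57 beside 0.07 over all tested genes. This rested on anti-PD-1 replicate 2: without it 4 of 12 tested members were positive and the median was -0.21. In CPM, mt-Atp8 alone had groups that did not overlap, 1 of 11 where 10.8% of all tested genes did. The control samples are the same as in the anti-CTLA-4 comparison, so the 2 sets of changes share their reference.

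Anti-CTLA-4 against anti-PD-1 compares the antibodies directly. None of the 2 members to which DESeq2 gave a p passed, and limma voom called 0 of all 7858 tested genes. With edgeR no member passed at an adjusted p under 0.05, 0 of 11 where 0.827% of all tested genes did. The nearest was mt-Rnr2, with a log2 fold change of 0.77 ± 0.22 (SE) and an edgeR adjusted p of 0.0604. Over 18 alternatives its adjusted p ranged from 0.00106 to 0.992 and was under 0.05 in 4, among them the fits without anti-CTLA-4 replicate 1, anti-CTLA-4 replicate 3 or anti-PD-1 replicate 2. At an unadjusted p under 0.05, 2 of 11 were higher with anti-CTLA-4, mt-Nd4 and mt-Rnr2, against 14.1% of all tested genes. In CPM, the ribosomal RNAs mt-Rnr1 and mt-Rnr2 had groups that did not overlap, 2 of 11 where 9.76% of all tested genes did, both higher with anti-CTLA-4. The mean level of mt-Rnr1 was 46381 ± 1805 CPM under anti-CTLA-4 against 41532 ± 1368 CPM under anti-PD-1, and that of mt-Rnr2 was 18380 ± 964 and 16229 ± 386 CPM (SD, n = 3 each). The tested protein genes overlapped in every case. Of the 11 fitted changes 8 were positive, with a median of 0.61 beside -0.05 over all tested genes. Without anti-CTLA-4 replicate 2, 6 of 12 were positive and the median was -0.01. The fit without the 2 libraries with the fewest genes was chosen after seeing the data and sets 2 libraries against 2. In it 1 of 12 tested members was called, where 16 of all 9074 tested genes were. This was mt-Nd5, higher with anti-CTLA-4, with a log2 fold change of 0.98. Its edgeR adjusted p was 7.59e-06, against 0.852 with all 9 libraries. In the libraries that then remain its levels were 25393 and 23450 CPM under anti-CTLA-4 against 11734 and 15302 CPM under anti-PD-1.

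The nuclear genes that serve the same complexes were measured less evenly. Of 75 nuclear subunits of complexes I to IV and the ATP synthase, 61 were tested and 6 reached 5 CPM in every library, where 13.7% of all tested genes did. Their summed level stayed between 4457 and 6886 CPM. The summed mitochondrial protein genes were 8.51 to 18.1 times as high, lowest in anti-PD-1 replicate 1 and highest in anti-CTLA-4 replicate 2. None of the 61 was called by edgeR against Control with either antibody, where 0.369% and 0.0764% of all tested genes were. At an unadjusted p under 0.05 there were 5 and 4, against 11.3% and 6.01% of all tested genes. DESeq2 called 3 and 5 of the 47 given a p, where it called 10.3% and 7.57% of all 5573 genes with a p. Limma voom called none, where it called 0 and 2 of all 7858 tested genes. Between the antibodies edgeR called 1, where 0.827% of all tested genes were called, and DESeq2 6 of 47, where it called 15.3% of all genes with a p. The edgeR call was Atp5g1, a subunit of the membrane ring of the ATP synthase, which stood at 0.131, 363 and 290 CPM under anti-CTLA-4 and 0.118, 0.151 and 4.88 CPM under anti-PD-1, with an edgeR adjusted p of 0.0496. The groups overlapped, since anti-CTLA-4 replicate 1 was lower than anti-PD-1 replicates 2 and 3. The median log2 fold change of the 61 was 0.13 for anti-CTLA-4 and 0.37 for anti-PD-1 against Control.
The levels of single subunits varied between groups and libraries. Atp5b, the catalytic subunit of the ATP synthase, was at 354 ± 85.3 CPM in Control, 716 ± 390 with anti-CTLA-4 and 320 ± 83.6 with anti-PD-1. Cox4i1 of complex IV was at 293 ± 154, 145 ± 108 and 256 ± 38.2 CPM in the same order (SD, n = 3 each).

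Genes that copy, read and process the mitochondrial genome were counted unevenly across these libraries. EdgeR called none of them in the 3 comparisons, where it called 0.369%, 0.0764% and 0.827% of all tested genes. Limma voom called none either, where it called 0, 2 and 0 of all 7858 tested genes. Of 18 genes for maintenance and transcription of the mitochondrial genome 7 were tested, of 22 for processing and stability of its RNA 12, and of 13 regulators of mitochondrial biogenesis 9. At an unadjusted p under 0.05, edgeR counted 0, 3 and 1 of them for anti-CTLA-4 against Control, 0, 1 and 0 for anti-PD-1 against Control and 1, 4 and 0 between the antibodies, beside 11.3%, 6.01% and 14.1% of all tested genes. DESeq2 gave a p to 4, 11 and 8 members of these lists. It called 0, 3 and 0 of them for anti-CTLA-4 against Control, where it called 10.3% of all genes with a p, 0, 1 and 0 for anti-PD-1 against Control, where it called 7.57%, and 1, 5 and 0 between the antibodies, where it called 15.3%. None of these 3 lists had a member at 5 CPM in all 9 libraries, where 13.7% of all tested genes reached it. Nrip1, from the list of biogenesis regulators, ranged from 1.88 to 415 CPM. Tfam, which packs the mitochondrial genome and starts its transcription, stood at 80.4, 0.0643 and 117 CPM in the Control mice, 30.1, 0.0281 and 23.7 CPM under anti-CTLA-4 and 0.0392, 1.12 and 157 CPM under anti-PD-1. It was at or under the floor in 1 library of each group, including anti-CTLA-4 replicate 2, where the mitochondrial share was among the highest. Ssbp1, which binds single strands of that genome during its replication, ranged from 1.96 to 371 CPM, and Polg, its DNA polymerase, from 0.0844 to 108 CPM.
Among genes for RNA processing, Rexo2, an exonuclease that removes very short RNAs, was at 116 ± 16.1 CPM in Control, 87.7 ± 76.0 with anti-CTLA-4 and 173 ± 73.1 with anti-PD-1 (SD, n = 3 each). Grsf1, which binds mitochondrial RNA in granules, ranged from 0.0392 to 148 CPM. Trnt1, which adds the last bases to transfer RNAs, stood at 37.6, 13.8 and 61.6 CPM in the Control mice, 0.0984, 0.0281 and 0.0918 CPM under anti-CTLA-4 and 93.8, 423 and 80.9 CPM under anti-PD-1. All 3 anti-CTLA-4 libraries were at or under the floor, and the groups did not overlap. In CPM, 11.9% of all tested genes did not overlap for anti-CTLA-4 against Control. The share was 10.8% for anti-PD-1 against Control and 9.76% between the antibodies. The edgeR adjusted p of Trnt1 was 0.276 for anti-CTLA-4 against Control and 0.0561 for anti-CTLA-4 against anti-PD-1, and DESeq2 called it in both. Summed, the 22 genes of this list were at 38.5 CPM in anti-CTLA-4 replicate 2 and at 399 to 842 CPM in the other 8 libraries.
As a view of mitochondrial content, 16 nuclear genes for abundant mitochondrial proteins were taken, all tested, and 4 reached 5 CPM in every library. EdgeR called none in any comparison, where it called 0.0764% to 0.827% of all tested genes. At an unadjusted p under 0.05 it had 0, against 6.01% to 14.1%. DESeq2 gave a p to 12 and called none, where it called 7.57% to 15.3% of all genes with a p. Unadjusted, DESeq2 had 2, 0 and 4 under 0.05 in the 3 comparisons, and limma voom 0, 1 and 1. Limma voom called none of the 16, and at most 2 of all 7858 tested genes. The 16 genes summed to 1145 ± 434 CPM in Control, 1154 ± 529 with anti-CTLA-4 and 919 ± 347 with anti-PD-1 (SD, n = 3 each), and the groups overlapped. The sum was lowest, at 543 and 643 CPM, in anti-PD-1 replicate 2 and anti-CTLA-4 replicate 2, where mitochondrial transcripts took the highest share. Hspa9, the chaperone of the matrix, ranged from 7.25 to 466 CPM, and Vdac1, the pore of the outer membrane, from 27.9 to 272 CPM.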

How the data were processed

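RNA-seq counts per gene were deposited by the authors as 1 table of raw counts for 9 libraries, and all 9 columns were used. Per the submitters' processing notes, the tools were TopHat2, HTSeq and DESeq2 and the build was GRCm38. The table's name refers to the first strand. Tool versions, annotation and other counting settings were not stated in any source used here. The 5 HTSeq summary entries belong to no gene and entered neither library sizes nor tests. Genes held 32.9% to 40.7% of all counts.

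The members and the lists of other mitochondrial genes and cell markers were chosen with earlier results of these data known. Groups come from the labels. Groups were compared with the quasi-likelihood test of edgeR 4.0.16 in R 4.3.3 (TMM factors, robust fit, filterByExpr with a minimum count of 10) on all 9 libraries, with Benjamini-Hochberg adjustment over 7858 genes and a threshold of 0.05. Approximate standard errors were obtained by dividing the log2 fold change by the square root of F. Levels are CPM without TMM factors; values on the TMM scale are CPM divided by the factor. The text gives folds for mt- genes past the threshold and the 6 tested ones with the highest mean CPM, and from each other list called members and up to 3 with the highest mean CPM can be named. The fit was run on simulated data, the outcome of which is not given here. The common coefficient of variation between libraries was 1.84, so a gene that was not called is not shown to be unchanged. Each library is 1 mouse, and p-values rest on a spread between libraries that is estimated partly from all tested genes together. The spread between mice and that of RNA amplification cannot be told apart. Counts carry no molecular identifiers, so intervals and floors cover counting error only.

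Positions, sequences, identities and shared windows of 76 bases come from GENCODE M21 (GRCm38) transcripts. Alternatives were RLE factors, library totals, library sizes without mt- rows, no filter and a stricter one, DESeq2 1.42.0, limma 3.58.1 voom with quality weights, fits of 2 groups, the replicate number as a block, each library left out, and, for the share, other denominators and members. Adding the nuclear copies, and dropping the 2 libraries that detected the fewest genes, were chosen after seeing the data.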

Additional observations from a re-analysis of the deposited data

How the results depend on the processing

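The call of mt-Rnr2 was the result that moved most. For anti-CTLA-4 against Control, 0 mitochondrial genes were called in place of 1 with RLE factors, library totals, limma voom or a 2-group fit. Over all tested genes these 4 settings called 0, 0, 0 and 1, against 29 in the main fit. Without the 2 libraries with the fewest genes 0 were called too, where 1 of all 9074 tested genes was. When 1 library was left out, 0 to 4 were called. The number was 0 without Control replicate 1, Control replicate 2 or anti-CTLA-4 replicate 2, and 4 without anti-CTLA-4 replicate 3. Over all tested genes these 4 fits called 20, 15, 0 and 72. For anti-CTLA-4 against anti-PD-1, 1 was called in place of 0 with library sizes that leave out the mt- rows, with no filter on low counts or without the 2 libraries, and 0 to 2 when 1 library was left out (2 without anti-PD-1 replicate 2). Over all tested genes the first 3 of these fits called 72, 98 and 16 and the fit without anti-PD-1 replicate 2 called 57, against 65 in the main fit. DESeq2 gave a p to 2 of 11 members and so no count. With no filter edgeR called mt-Rnr1 (adjusted p = 0.0081) and not mt-Rnr2 (adjusted p = 0.114) against Control.

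Directions changed for uncalled genes. For anti-PD-1 against Control, library totals gave log2 fold changes of -0.064 for mt-Rnr1 and -0.036 for mt-Rnr2, and voom gave -0.55 for mt-Nd2 and -0.17 for mt-Co1. Without the 2 libraries the values were -0.013 for mt-Rnr1, -0.47 for mt-Nd5, -0.24 for mt-Cytb, -0.23 for mt-Nd2 and -0.10 for mt-Co1. Voom gave -0.27 for mt-Nd2 in anti-CTLA-4 against Control. For anti-CTLA-4 against anti-PD-1, library totals gave -0.064 for mt-Nd2 and -0.10 for mt-Co1.
When 1 library was left out, values for anti-PD-1 against Control ran from -0.45 to 0.81 for mt-Nd5, -0.23 to 0.98 for mt-Cytb, -0.22 to 1.02 for mt-Nd2 and -0.079 to 0.94 for mt-Co1, each lowest without anti-PD-1 replicate 2. Those for anti-CTLA-4 against anti-PD-1 ran from -0.23 to 1.76 for mt-Cytb, -0.37 to 1.20 for mt-Nd2 and -0.29 to 1.04 for mt-Co1, each lowest without anti-CTLA-4 replicate 2.
The cause of these changes was not tested. All alternatives for the mitochondrial share and for the ribosomal RNA part of it moved the value by less than 1 SD between libraries. For the share this SD was 2.525 points, larger than each difference of group means. A move of less than 1 SD therefore does not show that these differences were stable. That of anti-PD-1 minus Control changed sign when single libraries were left out.

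No pairing of samples by replicate number was seen: the 9 same-numbered pairs correlated at -0.03 to 0.02. Pairs with different numbers correlated at -0.02 to 0.03. A shared batch that is weak beside the spread between libraries would not be seen in this way. With the replicate block, 1, 0 and 0 members were called in the 3 comparisons, as without it, while the calls over all genes went from 29 to 10, from 6 to 1 and from 65 to 12. At this depth 3 counts equal 0.0723 to 0.118 CPM. The 21 transfer RNAs at 0 are shorter than a read, and mt-Co2, mt-Co3, mt-Atp6, mt-Nd3 and mt-Nd4l share nearly all their bases with nuclear copies. The part of length and copies in these low counts was not tested.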
